A study of Drosophila melanogaster with 52 samples.

Results

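The dosage compensation machinery of *Drosophila melanogaster* was followed through 7 of the 16680 genes in the expression files: the 2 noncoding *roX* RNAs, *roX1* and *roX2*, and the protein subunits encoded by *msl-1*, *msl-2*, *msl-3*, *mle* and *mof*. The rows were taken by exact match of the gene symbol in every library. All 7 were found in every library, and all 7 passed the filter on low counts in each of the 5 experiments. Across the genotype comparisons, most calls were of 3 of the 7 genes. *roX1* passed the threshold in 9 of 16 comparisons (6 higher, 3 lower), *roX2* in 11 of 16 (5 higher, 6 lower) and *msl-2* in 7 of 16 (3 higher, 4 lower). *msl-1* passed it in 1 of 16 (higher), *mle* in 1 of 16 (lower), and *msl-3* and *mof* in 0 of 16 by edgeR and by DESeq2, although their adjusted p by edgeR was below 0.05 in 7 and 10 of 16. The share of all tested genes that was called ran from 6.45 to 43.4% over these comparisons. *roX1*, *roX2* and *msl-2* were also the 3 members whose level rose most during wild-type development.

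In flies, males carry a single X chromosome, and a ribonucleoprotein known as the male-specific lethal (MSL) complex raises transcription from it. MSL1 is the scaffold of the complex, MSL2 is its RING-finger subunit and is made in males only, MSL3 carries a chromodomain that reads methylated nucleosomes, MLE is an RNA helicase that remodels the *roX* RNAs, and MOF is the acetyltransferase that modifies histone H4. The *roX* RNAs are redundant with each other in this role and assemble with the proteins. In females the RNA-binding protein Sxl blocks the translation of *msl-2* RNA, so that the presence of *msl-2* RNA in an embryo does not by itself mean that the protein is made. The early embryo begins with RNA laid down by the mother, and switches on its own genes during the first hours while maternal RNA is cleared.

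RNA was sequenced from hand-picked pools of embryos in 52 libraries, as 26 groups of 2, in 5 experiments that each had a wild type of their own. Stages were 0.5 to 1 h, 1 to 1.5 h and, in the HIRA and H3.3 mutant experiments only, 2.5 to 3 h. The comparisons address what happens to the early transcriptome when HIRA, H3.3 or dPCIF1 is removed, displaced, altered or supplied in excess. HIRA is the chaperone that deposits histone H3.3 in nucleosomes, and dPCIF1 is a protein the study links to HIRA. Sex was not given for the embryos, so a change in the share of male embryos was not tested.

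In the mislocalized dPCIF1 mutant, a trap on lipid droplets held back GFP-tagged dPCIF1 in the egg. The HIRA maternal mutant (labelled M-Z+, maternal product absent and zygotic copy present) came from mothers carrying a CRISPR null allele, and the H3.3 maternal mutant (also M-Z+) from mothers lacking both *His3.3A* and *His3.3B*, which were rare escapers. The paper cites earlier work that gave HIRA a role in forming the diploid zygote. The ploidy of the HIRA mutant embryos was not given, and its part in the values here was not tested. In the overexpression groups, Myc-tagged HIRA alone, or HIRA and dPCIF1 together, were driven in the female germline by a maternal alpha-tubulin GAL4 driver. The dPCIF1 S111A,S115A mutant carried a knock-in of non-phosphorylatable residues in its maternal dPCIF1. The wild type was the w1118 strain throughout, according to the study's methods. Each library was a pool of embryos, so that fewer cells of a type and less RNA per cell cannot be told apart in any value given here.

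The libraries held 15073545 to 31579940 counts (median 23610130), and a level is given here as CPM, its count scaled to that total. A count of 3, taken as the floor of detection, was 0.0950 to 0.199 CPM, which limits *roX2* alone among the members, and such limits cover counting error only. *Hira* stood at 68.1 and 67.0 CPM in the HIRA mutant libraries at 0.5 to 1 h against 186 and 168 in wild type, but at 21.5 and 19.2 against 11.1 and 10.1 at 2.5 to 3 h. *His3.3B* stood at 248 and 245 CPM in the H3.3 mutant at 0.5 to 1 h against 651 and 672, and *Hira* at 2371 and 2343 under HIRA overexpression against 163 and 162. The dPCIF1 gene, listed as *CG11399*, stood at 80.3 and 77.5 CPM in the S111A,S115A mutant at 0.5 to 1 h against 380 and 394, without overlap. The summed level of 5 genes of differentiated muscle and nerve cells (older embryo markers) ranged from 2.47 to 333 CPM over the groups before 1.5 h, and that of 11 eggshell genes of follicle cells from 0.0168 to 222 CPM. These are the markers of other material in the pools, and their values stand beside the results below. The 15 zygotic stage genes and the 11 maternal genes, the markers of the embryo itself, were above 0 in every group.

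A gene was called changed when edgeR's quasi-likelihood test gave a Benjamini-Hochberg adjusted p below 0.05 over all genes tested and the fold change on the log2 scale exceeded 1 in size. "Rose" and "fell" are used of such calls. The 16 genotype comparisons are not independent, since at each stage the 3 overexpression groups enter 3 comparisons that share libraries. Groups had 2 libraries, which the paper's methods call biological replicates, but nothing in the labels says that these came from separate crosses. Each p thus measures the spread between libraries, which may be in part technical.

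*roX1* lies on the X chromosome at X:3857230-3862697 (dm6, minus strand, FBgn0019661) as a noncoding gene with 5 annotated transcripts, and its end overlaps the oppositely oriented gene *ec* in part. *roX2* lies at X:11579065-11580432 (plus strand, FBgn0019660), also noncoding, with 6 annotated transcripts. *msl-1* is at 2L:18683720-18688800 (minus strand), *msl-2* at 2L:3462218-3466112 (minus strand), *msl-3* at 3L:7123213-7125533 (minus strand), *mle* at 2R:5974857-5980778 (minus strand) and *mof* at X:5873840-5876853 (minus strand, a single exon). *msl-2* encloses the microRNA gene *mir-4971*, and *msl-3* overlaps *form3* on the opposite strand by 85 bases. The libraries were strand-specific, but the strand setting of the counting was not given in the sources used here, so reads in these overlaps may be shared with the neighbours.

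*roX1*, *roX2* and *msl-2* rose with age in wild type while the other subunits were already abundant. In the wild type of the H3.3 experiment, *roX1* stood at 24.2 and 26.5 CPM at 0.5 to 1 h, at 88.5 and 90.8 CPM at 1 to 1.5 h and at 1297 and 1471 CPM at 2.5 to 3 h. *msl-2* stood there at 9.89 and 10.97, then 14.2 and 14.7, then 248 and 274 CPM. *roX2* stood at 0.102 and 0.0636, then 0.585 and 0.538, then 6.73 and 6.01 CPM. The libraries of successive stages did not overlap for any of these 3 genes. From 1 to 1.5 h to 2.5 to 3 h the log2 rise was 3.99 ± 0.07 (SE) for *roX1*, 4.21 ± 0.07 for *msl-2* and 3.54 ± 0.21 for *roX2*, and in the wild type of the HIRA experiment it was 2.95 ± 0.20, 3.14 ± 0.07 and 2.051 ± 0.19 (adjusted p between 1.65e-17 and 1.30e-06, edgeR). The median change of all tested genes between these stages was 0.28 and 0.32, against which the rises are to be read.

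In this late interval 4 of the 7 members were called in the H3.3 wild type (*roX1*, *roX2*, *msl-2* and *mle* higher), beside 51.7% of the 10644 genes tested, and 4 of 7 in the HIRA wild type (*roX1*, *roX2* and *msl-2* higher, *msl-1* lower), beside 57.6% of 10638. With DESeq2 the HIRA wild type also had 4 of 7, but with *mle* (1.20) in place of *msl-1* (−0.96). The counts were thus close to the background share of called genes. In the early interval, from 0.5 to 1 h to 1 to 1.5 h, the members called were *roX1* and *roX2* in the mislocalized dPCIF1 wild type (2 of 7, background 14.7%), *roX1* and *msl-2* in the HIRA wild type (2 of 7, 11.9%), *roX1* and *roX2* in the H3.3 wild type (2 of 7, 7.20%) and in the overexpression wild type (2 of 7, 8.13%), all higher. In the S111A,S115A wild type 0 of 7 was called (7.61%). There *roX1* stood at 93.3 and 87.7 CPM and then at 123 and 106 CPM, a difference of 0.34 ± 0.08 that passed the adjusted p (0.00370, edgeR) but not the fold threshold. By an unadjusted p below 0.05, *msl-2* was the other member of that comparison to differ, at 11.4 and 10.6 and then 19.5 and 15.8 CPM (0.67 ± 0.11). DESeq2 called 0 of 7 there as well.

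At the 2 earlier stages the wild types of different experiments differed from each other in the 2 *roX* RNAs by more than in any other member. At 0.5 to 1 h the 5 wild-type means of *roX1* ran from 15.1 CPM (mislocalized dPCIF1 experiment) through a median of 26.5 to 90.5 CPM (S111A,S115A experiment), a 5.99-fold range. At this stage *roX2* ran from 0.0391 to 0.978 CPM. The same 5 groups spanned 1.59-fold for *msl-2*, 1.29-fold for *msl-1*, 1.33-fold for *msl-3*, 1.27-fold for *mle* and 1.24-fold for *mof*. Among the 6 mutant and overexpression groups at this stage, HIRA overexpression (160 CPM) and the S111A,S115A mutant (104 CPM) exceeded the wild-type *roX1* range. The other means lay within it. Each genotype was therefore tested only within its own experiment, and ranks across experiments are descriptions. Experiments also differed in how the effective gene length had been derived. This length enters the TPM used below, with most effect on the short *roX2*, and not the CPM compared here.

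**Figure D1:**
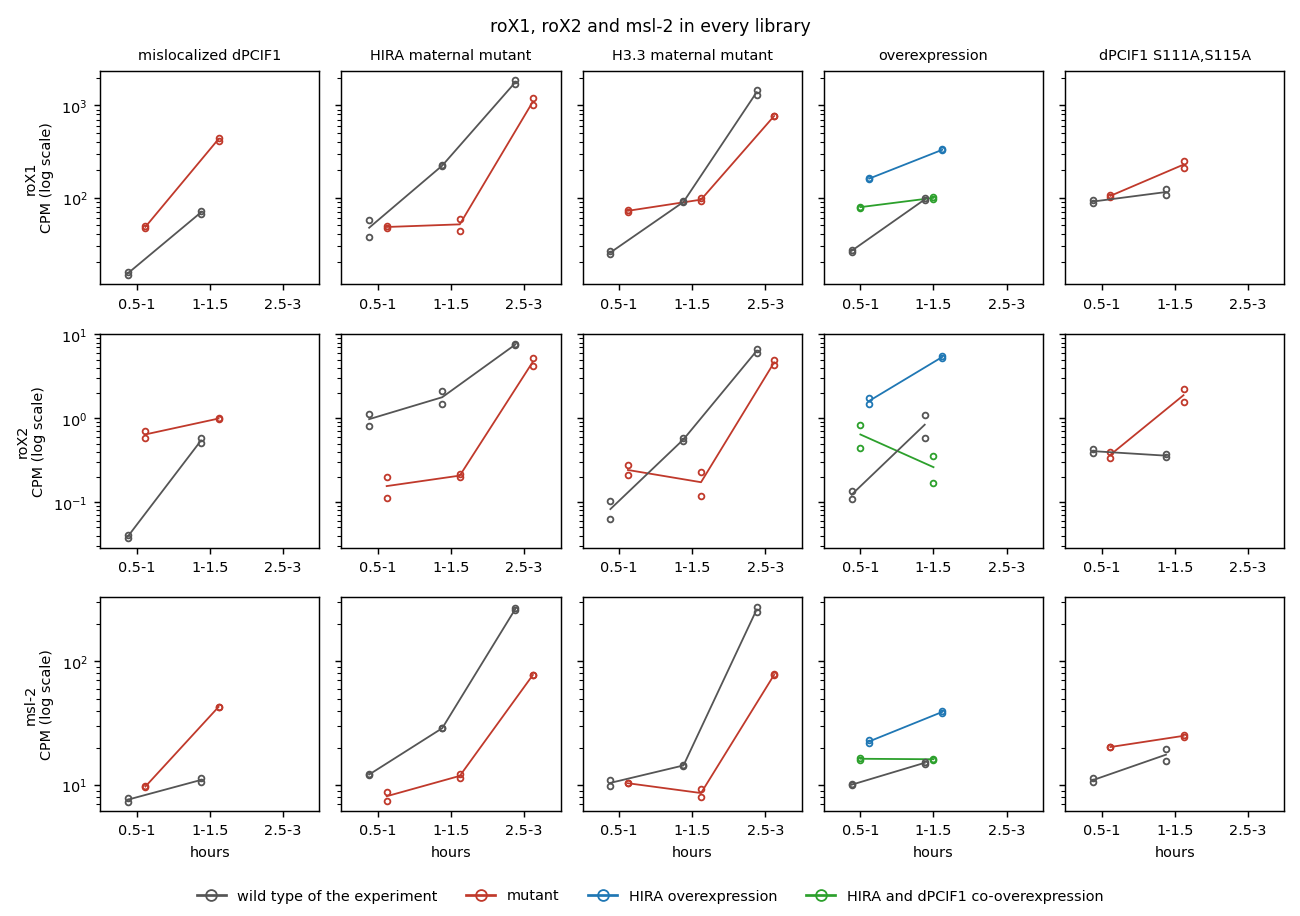
Level of *roX1*, *roX2* and *msl-2* in each library (circles, CPM on a log axis) by stage in hours, with 1 column of panels per experiment and lines joining the group means of each genotype. The wild types rose to 1384 and 1779 CPM of *roX1* at 2.5 to 3 h, and at that stage both mutants lay below their wild type for all 3 RNAs.

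Levels of different genes were compared on the deposited TPM, which accounts for length. In the H3.3 wild type at 0.5 to 1 h the order was *msl-1* (166 TPM), *msl-3* (78.2), *mof* (41.0), *mle* (20.1), *roX1* (7.98), *msl-2* (3.42) and *roX2* (0.240). *msl-1* led at 0.5 to 1 h and at 1 to 1.5 h in every group, and *roX2* was last in all 26 groups. At 2.5 to 3 h the order in both wild types was *roX1*, *msl-2*, *msl-1*, *mle*, *msl-3*, *mof* and *roX2*, with *roX1* at 643 and 377 TPM. *msl-2*, the RING-finger subunit, stood at 97.1 TPM against 73.9 for *msl-1* in the HIRA wild type, and at 70.6 against 70.5 in the H3.3 wild type, nearly the same value. In both mutants at this stage *msl-2* was below all other protein subunits, at 27.3 TPM (HIRA) and 20.9 TPM (H3.3), against 156 and 135 TPM for *msl-1*.

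**Figure D2:**
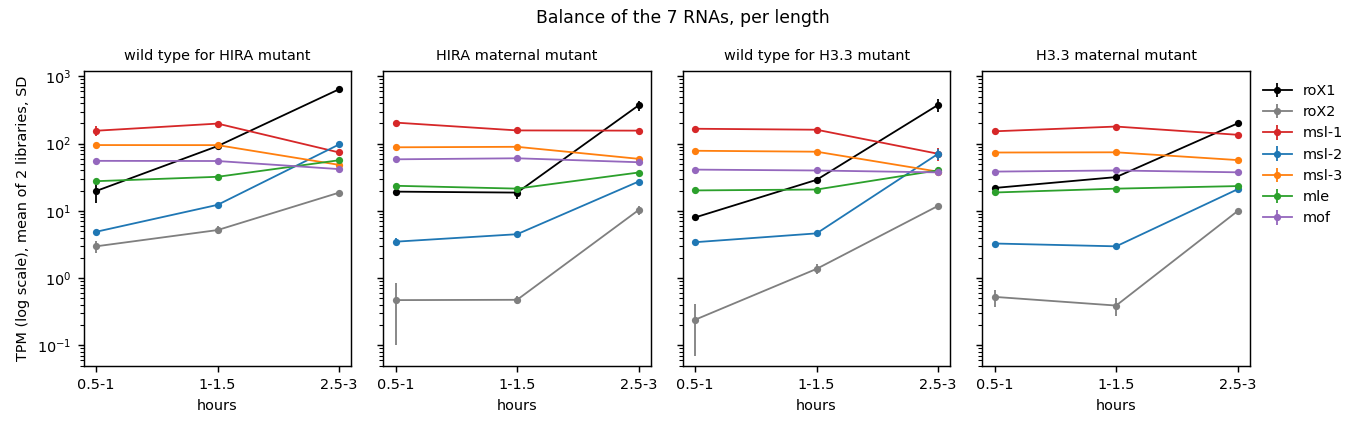
Mean TPM (log axis, bars for the SD of 2 libraries) of the 7 members by stage in hours, in the wild type and mutant of the HIRA and H3.3 experiments. *msl-1* led before 1.5 h, and at 2.5 to 3 h *msl-2* reached the level of *msl-1* in wild type (97.1 against 73.9 TPM and 70.6 against 70.5 TPM) but not in the mutants.

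Mislocalized dPCIF1 mutants had more *roX1* at both stages. At 0.5 to 1 h *roX1* stood at 49.7 and 46.6 CPM in the mutant against 14.6 and 15.6 CPM in its wild type, and at 1 to 1.5 h at 415 and 448 against 66.6 and 71.6 CPM. The groups did not overlap at either stage, and the log2 change was 1.55 ± 0.07 (adjusted p = 4.06e-12, edgeR) and 2.60 ± 0.04 (5.68e-18). The mutants at 1 to 1.5 h held the highest *roX1* of all 11 groups at that stage on CPM, with a mean of 431 CPM. On TPM the HIRA overexpression group was higher, at 129 against 122 TPM. *roX2* stood at 0.706 and 0.581 CPM at 0.5 to 1 h against 0.0409 and 0.0373 CPM, which was 1 count in each wild-type library, so that the ratio was 16.5 with a 95% counting interval of 4.28 to 141. *msl-2* was at 9.69 and 9.82 CPM against 7.37 and 7.90 at 0.5 to 1 h, and rose at 1 to 1.5 h to 42.8 and 42.9 CPM against 10.6 and 11.4 (1.92 ± 0.07, adjusted p = 8.16e-14). At that stage *roX2* was at 1.02 and 0.971 CPM against 0.511 and 0.577 (0.83 ± 0.30, adjusted p = 0.0170), below the fold threshold. In all, 2 of 7 members rose at 0.5 to 1 h (*roX1*, *roX2*; 16.4% of 8700 genes were called) and 2 of 7 at 1 to 1.5 h (*roX1*, *msl-2*; 27.2%).

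The zygotic stage list moved the same way in these libraries, with 14 of 15 genes higher at 0.5 to 1 h and 15 of 15 at 1 to 1.5 h, and its summed level was 2543 CPM in the mutant and 529 in the wild type at the later stage. The older embryo markers summed to 84.9 CPM in the mutant and 3.71 in the wild type at 0.5 to 1 h, and to 58.7 and 86.1 CPM at 1 to 1.5 h, and none of the 5 was at 0. The earlier stage had 4 of these 5 called, all higher, and the later stage had 1 higher and 4 lower, and their part in the result was not tested. The eggshell genes were too low to be tested in this experiment, at 0.139 to 0.997 CPM in sum.

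HIRA maternal mutants had less *roX1* than wild type at 1 to 1.5 h. *roX1* stood at 43.8 and 58.6 CPM in the mutant against 225 and 219 CPM (−2.12 ± 0.19, adjusted p = 8.79e-06, edgeR). At 0.5 to 1 h it stood at 46.6 and 49.3 against 37.6 and 56.6 CPM, with both mutant libraries inside the wild-type span (0.20 ± 0.19, adjusted p = 0.412). At 2.5 to 3 h it stood at 1191 and 1002 against 1869 and 1688 CPM, a difference of −0.74 ± 0.18 (adjusted p = 0.00348) below the fold threshold and of −0.47 relative to the median of all tested genes, which was −0.28. *roX1* in the mutant therefore stayed level between the early stages, while it rose in the wild type (2.32 ± 0.20, adjusted p = 6.60e-06).

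*roX2* and *msl-2* were also lower in HIRA mutants. *roX2* had 3 counts in each mutant library at 0.5 to 1 h (0.199 and 0.112 CPM) against 36 and 19 counts in wild type (1.14 and 0.816 CPM), a ratio of 0.143 with a 95% counting interval of 0.0504 to 0.332. At 1 to 1.5 h it stood at 0.214 and 0.201 against 2.10 and 1.47 CPM (−3.07 ± 0.37, adjusted p = 6.18e-05, edgeR), and at 2.5 to 3 h at 5.30 and 4.18 against 7.77 and 7.42 CPM (−0.73 ± 0.17, below the fold threshold). *msl-2* was lower at every stage, without overlap of the libraries. It stood at 8.82 and 7.45 against 12.3 and 12.1 CPM at 0.5 to 1 h (−0.43 ± 0.09, below the fold threshold), at 11.3 and 12.4 against 28.8 and 28.8 CPM at 1 to 1.5 h (−1.28 ± 0.07, adjusted p = 2.52e-07) and at 77.1 and 78.1 against 269 and 261 CPM at 2.5 to 3 h (−1.82 ± 0.06, adjusted p = 1.51e-09).

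The members called in the HIRA mutant were 1 of 7 at 0.5 to 1 h (*roX2* lower, 19.5% of 10638 genes called), 3 of 7 at 1 to 1.5 h (*roX1*, *roX2* and *msl-2* lower, 23.2%) and 2 of 7 at 2.5 to 3 h (*msl-2* lower, *msl-1* higher, 37.6%). The older embryo markers summed to 333 CPM in the wild type at 0.5 to 1 h against 4.05 in the mutant, to 287 against 2.47 at 1 to 1.5 h, and to 1377 against 122 at 2.5 to 3 h. The eggshell genes summed to 57.7 CPM in the wild type at 0.5 to 1 h against 1.15 in the mutant, to 3.02 against 0.446 at 1 to 1.5 h and to 9.47 against 5.34 at 2.5 to 3 h. In both lists the wild type was the higher group, and their part in the lower *roX1*, *roX2* and *msl-2* of the mutant was not tested. Of the zygotic stage list, 10 of 15 were lower at 1 to 1.5 h and 6 of 15 at 2.5 to 3 h, while 5 of 15 were higher at 0.5 to 1 h. The maternal list had 7 of 11 higher at 2.5 to 3 h, with a summed level of 6499 CPM against 2128. According to the paper, nuclear division was arrested or delayed in most HIRA mutant embryos of its late stage. How many such embryos the late pools held was not given. The part of this arrest or delay in the levels of the members was not tested.

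H3.3 maternal mutants differed by stage. At 0.5 to 1 h *roX1* was higher, at 70.0 and 73.7 CPM against 24.2 and 26.5 (1.45 ± 0.07, adjusted p = 1.13e-10, edgeR). It stood at 92.1 and 97.8 against 88.5 and 90.8 CPM at 1 to 1.5 h (0.05 ± 0.06, adjusted p = 0.594), and at 2.5 to 3 h it was lower, at 770 and 762 against 1297 and 1471 CPM (−1.16 ± 0.06, adjusted p = 3.90e-11). Scaled to library totals, the difference at 2.5 to 3 h was −0.85 and below the fold threshold. *roX1* in these mutants thus began above its wild type and ended below it, without overlap of the libraries at either end. *roX2* was at 8 and 6 counts (0.274 and 0.210 CPM) against 3 and 2 counts (0.102 and 0.0636 CPM) at 0.5 to 1 h, a ratio of 2.95 with a 95% counting interval of 1.005 to 10.48 that did not pass the test (adjusted p = 0.0850). It fell at 1 to 1.5 h, at 0.226 and 0.1199 against 0.585 and 0.538 CPM (−1.69 ± 0.43, adjusted p = 0.00486), a call that was lost without the second mutant library (−1.31, adjusted p = 0.0638). At 2.5 to 3 h it stood at 5.01 and 4.27 against 6.73 and 6.01 CPM (−0.77 ± 0.16, below the fold threshold).

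*msl-2* in H3.3 mutants was at 10.4 and 10.3 CPM against 9.89 and 10.97 at 0.5 to 1 h (adjusted p = 0.624), at 8.04 and 9.23 against 14.2 and 14.6 at 1 to 1.5 h (−0.78 ± 0.09, adjusted p = 4.53e-06, below the fold threshold), and at 77.3 and 78.3 against 248 and 274 CPM at 2.5 to 3 h (−2.06 ± 0.06, adjusted p = 7.40e-14, edgeR). At 2.5 to 3 h *msl-2* lay at 77.1 to 78.3 CPM in all 4 mutant libraries of the HIRA and H3.3 experiments, and at 248 to 274 CPM in all 4 wild-type libraries. On TPM the mutant means were 27.3 (HIRA) and 20.9 (H3.3), and the wild-type means 97.1 and 70.6. The likeness between the 2 experiments thus depended on the scaling. The part of the arrested or delayed division that the paper reports for HIRA mutant embryos was not tested. The members called were 1 of 7 at 0.5 to 1 h (*roX1* higher, 12.0% of 10644 genes called), 1 of 7 at 1 to 1.5 h (*roX2* lower, 14.2%) and 3 of 7 at 2.5 to 3 h (*roX1*, *msl-2* and *mle* lower, 43.4%). The eggshell genes summed to 16.04 CPM in the mutant against 3.92 in the wild type at 0.5 to 1 h (10 of 11 higher), to 222 against 0.0168 at 1 to 1.5 h (11 of 11 higher), where 10 of 11 were at 0 in the wild type, and to 37.6 against 3.35 at 2.5 to 3 h (10 of 11 higher). The older embryo markers summed to 37.5 against 89.7 CPM at 0.5 to 1 h, to 252 against 50.2 at 1 to 1.5 h, and to 2016 against 504 at 2.5 to 3 h. Their part in the results was not tested. The zygotic stage list had 1, 0 and 2 of 15 genes higher and 0, 0 and 7 of 15 lower at the 3 stages, and the maternal list 9 of 11 higher at 2.5 to 3 h.

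Embryos overexpressing HIRA had more of both *roX* RNAs and of *msl-2* at both stages. *roX1* stood at 159 and 162 CPM against 25.8 and 27.1 in the wild type at 0.5 to 1 h (2.58 ± 0.05, adjusted p = 1.82e-18, edgeR), and at 327 and 332 against 97.8 and 93.0 CPM at 1 to 1.5 h (1.70 ± 0.04, adjusted p = 1.42e-17). *roX2* stood at 1.49 and 1.74 CPM against 0.136 and 0.110 CPM at 0.5 to 1 h, the latter 3 counts in each library, a ratio of 13.3 with a 95% counting interval of 5.75 to 37.6. At 1 to 1.5 h it stood at 5.52 and 5.27 against 0.578 and 1.10 CPM (2.63 ± 0.26, adjusted p = 3.96e-08), the highest *roX2* level of the 11 groups at this stage. *msl-2* stood at 23.3 and 21.8 against 9.999 and 10.16 CPM (1.14 ± 0.07), and at 39.6 and 38.5 against 15.5 and 14.8 CPM (1.27 ± 0.06). The 3 of 7 members called at each stage stood beside 14.9% and 24.3% of the 8974 genes tested.

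With dPCIF1 supplied together with HIRA, the levels lay below those with HIRA alone. At 0.5 to 1 h *roX1* stood at 77.9 and 79.6 CPM, higher than in wild type (1.58 ± 0.05, adjusted p = 4.84e-15, edgeR) and lower than with HIRA alone (−0.99 ± 0.04, adjusted p = 5.56e-13, just under the fold threshold). At 1 to 1.5 h it stood at 102 and 96.8 CPM, which differed from wild type by 0.08 ± 0.04 (adjusted p = 0.0943) and from HIRA alone by −1.61 ± 0.04 (4.41e-17). The co-overexpression libraries lay between the other groups at the earlier stage, and next to wild type at the later one. *msl-2* followed the same order, at 15.99 and 16.68 CPM and then 16.3 and 16.1 CPM. It differed from wild type by 0.71 ± 0.07 (below the fold threshold) and 0.12 ± 0.07 (adjusted p = 0.215), and from HIRA alone by −0.43 ± 0.07 (below the fold threshold) and −1.16 ± 0.06 (adjusted p = 7.90e-12).

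*roX2* under co-overexpression stood at 0.448 and 0.836 CPM at 0.5 to 1 h, a ratio to wild type of 5.41 (95% counting interval 2.25 to 15.7) and a log2 difference from HIRA alone of −1.26 ± 0.33 (adjusted p = 0.00491, edgeR). At 1 to 1.5 h it stood at 0.168 and 0.355 CPM, lower than with HIRA alone (−4.31 ± 0.34, adjusted p = 1.38e-09) and lower than wild type (−1.68 ± 0.50, adjusted p = 0.00893). Several of these calls rest on few counts. The fall below wild type at 1 to 1.5 h was lost without the first co-overexpression library (−1.17, adjusted p = 0.131) or without the second wild-type library (−1.19, adjusted p = 0.116), and the difference from HIRA alone at 0.5 to 1 h was lost without the first co-overexpression library (−0.91, adjusted p = 0.0587). Against wild type, 2 of 7 members were called at 0.5 to 1 h (*roX1* and *roX2* higher, 12.9%) and 1 of 7 at 1 to 1.5 h (*roX2* lower, 12.0%). Against HIRA alone the counts were 1 of 7 (*roX2* lower, 7.21%) and 3 of 7 (*roX1*, *roX2* and *msl-2* lower, 21.6%).

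The zygotic stage list had 5 and 15 of 15 genes higher under HIRA overexpression at the 2 stages, 1 and 8 of 15 higher under co-overexpression against wild type, and 0 and 10 of 15 lower under co-overexpression against HIRA alone. The older embryo markers summed to 196 CPM with HIRA alone, 10.7 with HIRA and dPCIF1 and 43.2 in wild type at 1 to 1.5 h. At 0.5 to 1 h they summed to 20.7, 15.2 and 94.1 CPM in the same order of groups. The eggshell genes summed at 0.5 to 1 h to 48.2 CPM with HIRA alone, 25.5 with HIRA and dPCIF1 and 5.96 in wild type, and at 1 to 1.5 h to 3.21, 101 and 0.149 CPM. The part of these lists in the results was not tested.

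In the dPCIF1 S111A,S115A mutant no member was called at 0.5 to 1 h (0 of 7, 6.45% of 8746 genes called), and 1 was called at 1 to 1.5 h (*roX2* higher, 14.6%). *roX1* stood at 106 and 103 against 93.3 and 87.7 CPM at 0.5 to 1 h (0.16 ± 0.08, adjusted p = 0.140, edgeR). In the later pair of groups it stood at 209 and 246 against 123 and 106 CPM, without overlap (0.95 ± 0.07, adjusted p = 2.62e-07), just under the fold threshold. *roX2* stood at 0.339 and 0.397 against 0.387 and 0.426 CPM (adjusted p = 0.810), and then at 1.56 and 2.22 against 0.345 and 0.373 CPM (2.32 ± 0.36, adjusted p = 1.50e-04). *msl-2* was higher at both stages, below the fold threshold, at 20.5 and 20.1 against 11.4 and 10.6 CPM (0.84 ± 0.10, adjusted p = 3.27e-05), the 1 member with an unadjusted p below 0.05 at that stage by edgeR, and DESeq2 called none. Later it stood at 25.4 and 24.7 against 19.5 and 15.8 CPM (0.48 ± 0.10, adjusted p = 0.00123). The zygotic stage list had 9 and 7 of 15 genes higher at the 2 stages, and the older embryo markers summed to 128 CPM in the mutant against 29.6 at 1 to 1.5 h and 24.4 against 13.0 at 0.5 to 1 h. The eggshell genes summed to 47.2 against 24.2 CPM and then 1.86 against 0.578 CPM, and the part of these lists was not tested.

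**Figure D3:**
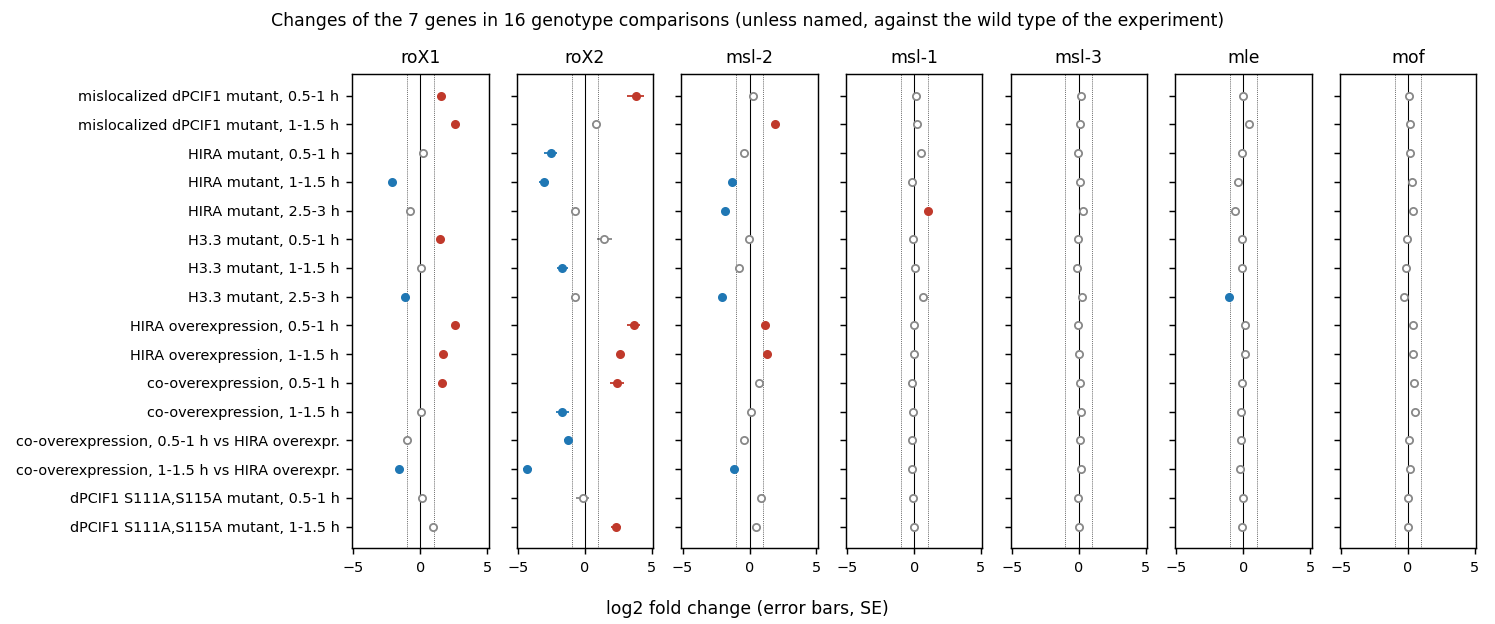
Log2 change of each member in the 16 genotype comparisons from edgeR (points, bars for the SE, filled where called, dotted lines at the fold threshold), with *roX1*, *roX2* and *msl-2* carrying most calls and *msl-3* and *mof* none. Changes of *roX1* ran from −2.12 (HIRA mutant, 1 to 1.5 h) to 2.60 (mislocalized dPCIF1 mutant, 1 to 1.5 h).

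The remaining subunits were abundant from the earliest stage and moved little before 1.5 h. The means of *msl-1* over the 22 groups before 1.5 h ran from 391 to 569 CPM, those of *msl-3* from 92.4 to 124 CPM, those of *mle* from 58.7 to 96.0 CPM and those of *mof* from 88.4 to 151 CPM. Over all 26 groups the highest mean exceeded the lowest 2.47-fold for *msl-1*, 1.82-fold for *msl-3*, 2.87-fold for *mle* and 1.71-fold for *mof*, against 118-fold for *roX1*, 194-fold for *roX2* and 34.7-fold for *msl-2*. With the groups ranked by level, the libraries of neighbours overlapped in 19 of 25 neighbouring pairs for *msl-3* and *mof*, 18 for *roX2* and *mle*, 15 for *msl-1*, 11 for *msl-2* and 10 for *roX1*. Overlap here concerns neighbours in the ranking only, and groups further apart are compared below.

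At 2.5 to 3 h the scaffold subunit gene *msl-1* was lower in wild type than before and stayed high in both mutants. It stood at 237 and 224 CPM in the HIRA wild type against 507 and 502 at 1 to 1.5 h (−1.18 ± 0.10, adjusted p = 4.81e-07, edgeR; −0.96 and not called with DESeq2 or with relative log expression factors), and at 261 and 299 against 529 and 522 CPM in the H3.3 wild type (−0.87 ± 0.06, below the fold threshold). The HIRA mutant held 488 and 470 CPM at 2.5 to 3 h (1.01 ± 0.10 above wild type, adjusted p = 3.18e-06), a value that was 0.91 and not called with DESeq2 or with relative log expression factors. The H3.3 mutant held 530 and 550 CPM (0.64 ± 0.06, adjusted p = 5.87e-08, below the fold threshold). *msl-3* stood at 84.7 and 90.0 CPM in the HIRA mutant against 68.6 and 67.4, and at 103 and 108 CPM in the H3.3 mutant against 69.6 and 71.5 CPM, without overlap and below the fold threshold (0.32 ± 0.05 and 0.27 ± 0.05). The maternal list, from which neither gene was taken, summed to 9542 CPM in the H3.3 mutant and 2662 in its wild type at this stage.

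The helicase gene *mle* went the other way. It stood at 161 and 163 CPM in the H3.3 wild type at 2.5 to 3 h, up from 70.0 and 71.2 CPM (1.24 ± 0.05, adjusted p = 1.22e-12, edgeR), and at 92.4 and 97.4 CPM in the mutant (−1.09 ± 0.05, adjusted p = 1.51e-11). Scaled to library totals the difference in the mutant was −0.77 and below the fold threshold, since that scaling moved the median of all genes in this comparison from −0.06 to 0.25. In the HIRA experiment *mle* stood at 117 and 114 CPM against 174 and 163 CPM (−0.59 ± 0.06, below the fold threshold). In the mislocalized dPCIF1 mutant at 1 to 1.5 h it stood at 97.2 and 94.8 CPM against 67.0 and 72.0 CPM (0.43 ± 0.04, below the fold threshold). The acetyltransferase gene *mof* was 138 to 155 CPM in all 8 libraries that overexpressed HIRA, with or without dPCIF1, against 102 to 108 CPM in the 4 wild-type libraries, without overlap. Its log2 differences from wild type were 0.41, 0.36, 0.48 and 0.55, each with an SE of 0.04 and an adjusted p between 2.83e-09 and 2.08e-07, and all below the fold threshold.

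**Figure D4:**
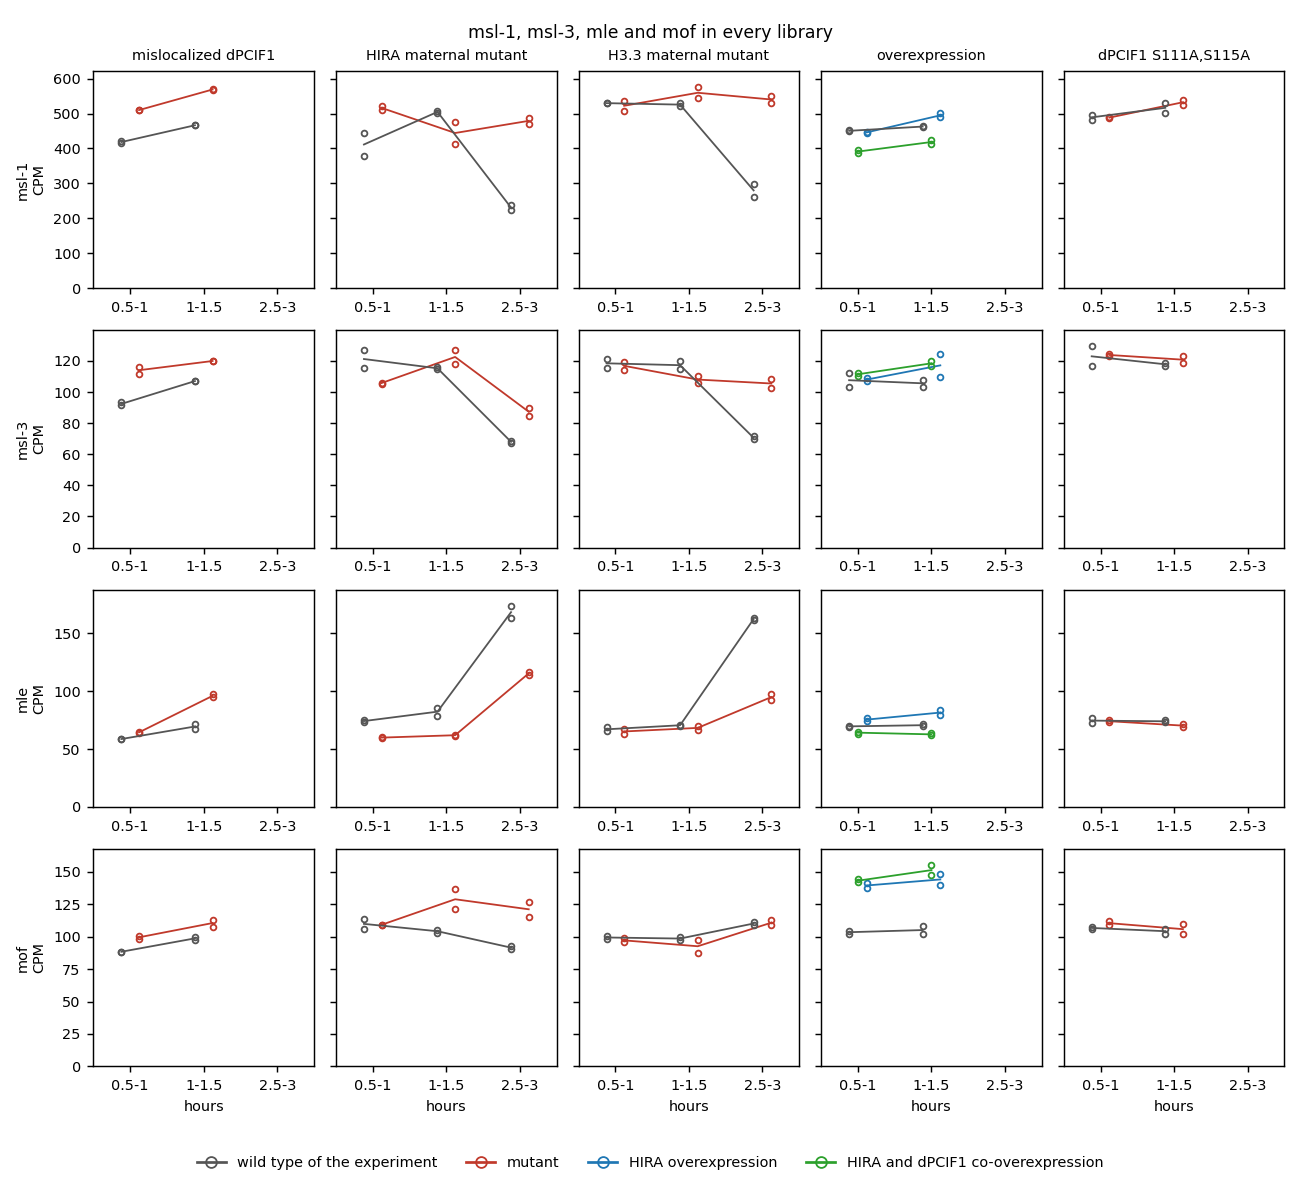
Level of *msl-1*, *msl-3*, *mle* and *mof* in each library (circles, CPM on a linear axis) by stage in hours, with 1 column of panels per experiment and lines joining the group means of each genotype. *msl-1* stood at 231 and 280 CPM in the 2 wild types at 2.5 to 3 h and at 479 and 540 CPM in the mutants.

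The effect of a genotype was compared between stages by an interaction term. In the mislocalized dPCIF1 experiment 3 of 7 members differed between 0.5 to 1 h and 1 to 1.5 h (16.1% of genes), with the change of *roX1* larger at the later stage by 1.06 ± 0.09 (adjusted p = 1.61e-08, edgeR) and that of *msl-2* by 1.69 ± 0.12, while that of *roX2*, resting on 2 counts in wild type, was smaller. In the HIRA mutant 1 of 7 differed between the early stages (*roX1*, 7.86%), and 3 of 7 between 1 to 1.5 h and 2.5 to 3 h (*roX1*, *roX2* and *msl-1*, 20.7%). In the H3.3 mutant 2 of 7 differed between the early stages (*roX1* and *roX2*, 10.1%), and 3 of 7 between the later ones (*roX1*, *msl-2* and *mle*, 28.2%). Between co-overexpression and wild type 2 of 7 differed (*roX1* and *roX2*, 5.64%), between co-overexpression and HIRA alone 1 of 7 (*roX2*, 9.48%), and in the S111A,S115A experiment 1 of 7 (*roX2*, 7.84%). Between HIRA overexpression and wild type 0 of 7 were called by edgeR or by DESeq2 (14.5% of genes), and 1 had an unadjusted p below 0.05, *roX1*, whose change was smaller at the later stage (−0.88 ± 0.06, adjusted p = 4.80e-10, below the fold threshold). *roX1* accordingly passed the threshold between stages in all 3 mutant experiments other than S111A,S115A, in opposite directions. It was more raised with time in the mislocalized dPCIF1 mutant. In the HIRA and H3.3 mutants it was less raised, or more reduced, from 0.5 to 1 h to 1 to 1.5 h. In the S111A,S115A mutant the change of *roX1* was larger at the later stage by 0.79 ± 0.10 (adjusted p = 1.8e-04, edgeR), below the fold threshold.

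Across the 26 group means, log2(CPM + 1) of *roX1* and *msl-2* ran together (Pearson's r 0.94, Spearman's rho 0.91), as did *roX1* and *roX2* (0.90 and 0.82) and *msl-2* and *mle* (0.95 and 0.82). *msl-1* and *msl-2* ran apart by Pearson's r (−0.59) but not by rank (−0.11). These values describe 26 means in which stage is shared between members and the 4 groups at 2.5 to 3 h lie far from the others. By the same measure, over 8036 genes with a mean of at least 1 CPM, the patterns most like *roX1* were those of *nkd*, a Wnt pathway antagonist (r 0.990), the innexin *Inx3* (0.988) and *Dtg*, a target of Dpp signalling (0.988), none of them on the X chromosome. Most like *msl-2* were *CG10176* (0.983), *CG13454* (0.981) and *lft* (0.980), and most like *roX2* were *pio* (0.942), *MRE23* (0.938) and *CG3625* (0.935). For *msl-1* they were *Cen* (0.976), *CHIP* (0.970) and *CG9795* (0.968), and for *mle* *Smg5* (0.982), *CG42399* (0.981) and *RhoU* (0.973). For *msl-3* they were *CG3631* (0.956), *CG11737* (0.953) and *CG17359* (0.952), and for *mof*, which had the weakest likeness, *tun* (0.832), *CG9948* (0.815) and *CR44600* (0.809).

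**Figure D5:**
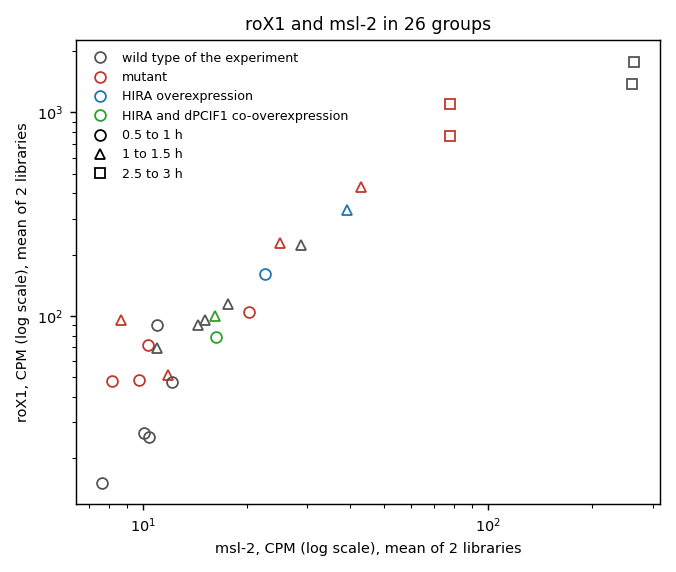
Mean level of *roX1* against that of *msl-2* in the 26 groups (CPM, log axes), with symbols for the stage and colours for the genotype. The groups at 2.5 to 3 h lie apart, with the wild types at 1384 and 1779 CPM of *roX1* and 261 and 265 CPM of *msl-2*.

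Genes that act around the complex were followed as lists of 22 genes in all. Over the 16 genotype comparisons, 5 of 352 gene-by-comparison tests were called higher and 8 lower, in 6 genes, where 6.45 to 43.4% of all tested genes were called in the same comparisons. Among the 4 genes that control *msl-2* RNA, 3 were higher and 5 lower of 64 tests. *Unr*, which represses *msl-2* translation together with Sxl, rose in the HIRA mutant at 0.5 to 1 h from 40.6 ± 2.12 to 180 ± 18.4 CPM (SD, n = 2; log2 change 2.33 ± 0.21 SE by edgeR) and in the H3.3 mutant at 0.5 to 1 h from 191 ± 2.52 to 506 ± 14.0 CPM (1.35 ± 0.05). It rose in the H3.3 mutant also at 2.5 to 3 h, from 150 ± 6.13 to 478 ± 14.7 CPM (1.36 ± 0.05), and it fell in the HIRA mutant at 1 to 1.5 h (−1.71 ± 0.21) and in the mislocalized dPCIF1 mutant at 1 to 1.5 h (−1.15 ± 0.05). *Sxl*, the switch gene of the female, fell in the HIRA mutant at 1 to 1.5 h (−1.31 ± 0.19) and in the H3.3 mutant at 2.5 to 3 h, from 625 ± 70.3 to 371 ± 9.41 CPM (−1.06 ± 0.07). *how*, whose product takes part in the splicing of *msl-2* RNA, fell in the HIRA mutant at 1 to 1.5 h (−1.31 ± 0.24). The early HIRA groups were uneven in these 4 genes. Their sum was 1161 and 1495 CPM in the wild type at 0.5 to 1 h, against 2000 and 2049 CPM in the mutant. At 1 to 1.5 h it was 2040 and 2019 CPM in the wild type, against 1103 and 1337 CPM in the mutant. The 2 low groups also had the wider spread between libraries, and the cause was not tested.

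Among the 10 targeting and *roX* chromatin partners, 2 tests of 160 were higher and 1 lower. *JIL-1*, a histone H3 kinase enriched on the male X, rose in the HIRA mutant at 2.5 to 3 h from 138 ± 3.56 to 350 ± 8.38 CPM (1.301 ± 0.14 SE). *E(bx)*, the large subunit of the nucleosome remodelling factor NURF, was higher in the HIRA mutant at 0.5 to 1 h (1.40 ± 0.34) and lower at 1 to 1.5 h (−1.83 ± 0.35), on libraries that spread widely (579 ± 270 CPM in the wild type at 0.5 to 1 h). In the NSL complex, the other MOF-containing complex, 0 tests of 128 were higher and 2 lower. Both were *MBD-R2*, which fell at 2.5 to 3 h from 185 ± 0.835 to 73.3 ± 0.0737 CPM in the HIRA mutant (−1.38 ± 0.04) and from 187 ± 7.86 to 77.8 ± 3.00 CPM in the H3.3 mutant (−1.58 ± 0.05). The NSL complex and partner genes had no call in the comparisons of overexpression, mislocalized dPCIF1 or S111A,S115A.

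Changes of X-linked genes were described by their median log2 change minus that of autosomal genes, over all genes tested. Clearance of maternal RNA and the onset of zygotic genes enter this difference, so it is not a measure of dosage compensation. In the HIRA mutant at 2.5 to 3 h the 1788 X-linked genes had a median of 0.006 and the 8710 autosomal genes −0.35, a difference of 0.354, and in the H3.3 mutant at this stage the difference was 0.129. In wild type from 1 to 1.5 h to 2.5 to 3 h it was −0.477 and −0.405. In the mislocalized dPCIF1 mutant it was −0.133 and −0.114 at the 2 stages. With only genes of at least 10 CPM, the HIRA value was 0.237 and that of the mislocalized dPCIF1 mutant at 1 to 1.5 h was −0.0566. These are descriptions over genes, which are not replicates, and embryos of both sexes may be mixed in each pool. The number of X chromosomes in the HIRA mutant embryos was not given.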

How the data were processed

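Levels were measured by strand-specific, rRNA-depleted RNA-seq of embryo pools (the labels name polyA RNA as the molecule). Per the submitters' processing notes and methods, adapters were removed by Trimmomatic 0.39, STAR 2.7.10a placed the reads on dm6, and RSEM 1.3.1 was used by the authors to estimate gene values. The deposited files hold RSEM expected counts and TPM per gene for each library, not filtered; 94.0 to 97.2% of the expected counts were whole numbers. The authors' own tests used DESeq2 1.40.2.

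Expected counts were rounded and tested in R 4.3.3 with edgeR 4.0.16 (limma 3.58.1), in one quasi-likelihood fit per experiment over all its groups, with TMM factors and a low-count filter (minimum count 10, minimum total 15). P-values were adjusted over all genes tested. The code was tested on simulated data. CPM used the library total (15073545 to 31579940 counts). Deposited TPM served to compare genes and as a second scale for levels across groups. Where both libraries of a group had 3 counts or fewer, a ratio with an exact 95% interval is given. Gene positions came from the dm6 annotation; FlyBase gene numbers or symbols placed all members. Alternatives were DESeq2 1.42.0, relative log expression factors, library totals, no filter, fits on the groups compared or on all 26 groups, a replicate block, and leaving out each library.

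The members and all 7 gene lists (*msl-2* control, targeting partners, NSL complex, zygotic stage, maternal, follicle cell, older embryo) were chosen with earlier results of these data known. Named genes are the members, up to 3 called genes per pathway list and comparison with the largest change, and the 3 genes most like each member over 26 groups. Deposited FPKM and lengths were not used.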

Additional observations from a re-analysis of the deposited data

Results flagged for a closer look

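The values here are differences between stages in the effect of a genotype on a member, as log2 units of the later stage minus the earlier one, from edgeR's interaction term with adjusted p over all genes; each rests on 2 libraries per group.

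In the mislocalized dPCIF1 experiment, from 0.5 to 1 h to 1 to 1.5 h, the effect on *roX1* grew by 1.06 (adjusted p = 1.61e-08) and that on *msl-2* by 1.69 (1.43e-09), while the effect on *roX2* changed by −2.96 (0.00235), with 1 count of *roX2* in each wild-type library at the earlier stage. In the HIRA mutant the effect on *roX1* changed by −2.32 (3.35e-04) between the early stages, and from 1 to 1.5 h to 2.5 to 3 h by 1.38 (*roX1*, 0.00119), 2.34 (*roX2*, 9.04e-04) and 1.20 (*msl-1*, 2.59e-05). In the H3.3 mutant it changed by −1.40 (*roX1*, 2.18e-08) and −3.15 (*roX2*, 0.00511) between the early stages, and by −1.21 (*roX1*, 5.61e-09), −1.28 (*msl-2*, 4.35e-08) and −1.003 (*mle*, 7.25e-09) between the later ones.

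Under co-overexpression against wild type, the effect on *roX1* changed by −1.498 (adjusted p = 5.69e-12, edgeR) and that on *roX2* by −4.07 (6.24e-04), and against HIRA alone that on *roX2* changed by −3.05 (1.35e-04). In the S111A,S115A mutant the effect on *roX2* changed by 2.50 (0.0103). The *roX2* differences that start from 0.5 to 1 h rest on 1 to 3 counts per library in the wild types of the mislocalized dPCIF1, H3.3 and overexpression experiments. No group was large enough for a test of single outlying libraries.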

How the results depend on the processing

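No alternative moved the log2 change of a called member by as much as a 1.5-fold shift. Levels across the 26 groups, which were not tested, depended more on the scaling. Relative to the median over groups, 130 member levels were counted as moved with TPM and 52 as the same. With CPM on TMM factors over all libraries, 89 were counted as moved and 93 as the same. The rankings, fold ranges and correlations over groups given above therefore hold for CPM on library totals. Fits with the replicate number as a block kept the call of all 224 member values (161 genotype and stage changes and the stage differences), moving none by more than 0.056; for instance, the count of members called in the HIRA mutant at 2.5 to 3 h stayed at 2. The numbers did not pair the samples, since same-numbered libraries of different groups deviated together with correlations of −0.063 to 0.150. A single fit over all 26 groups also kept all 224 calls. DESeq2 and relative log expression factors gave 1 called member in the HIRA mutant at 2.5 to 3 h in place of 2 (*msl-1* at 0.91), exchanged *msl-1* (−0.96) for *mle* (1.20) among the 4 called in the HIRA wild type from 1 to 1.5 h to 2.5 to 3 h, and DESeq2 gave 0 in place of 1 for the stage difference of the S111A,S115A mutant (*roX2*, 2.51, adjusted p = 0.0592). Library totals gave 1 in place of 3 in the H3.3 mutant at 2.5 to 3 h, where *roX1* (−0.85) and *mle* (−0.77) were no longer called. For co-overexpression against HIRA alone at 0.5 to 1 h they gave 2 in place of 1, as did a fit on those groups only. Library totals reversed the sign of *mof* in the HIRA mutant at 0.5 to 1 h (−0.0097) and in the H3.3 mutant at 2.5 to 3 h (0.0078), neither a call. The cause was not tested. Leaving out each library in turn gave 0 to 2 called members for co-overexpression against HIRA alone at 0.5 to 1 h, 0 to 1 for the H3.3 mutant at 1 to 1.5 h, for co-overexpression against wild type at 1 to 1.5 h and for the stage difference of the S111A,S115A mutant, and 1 to 2 for the S111A,S115A mutant at 1 to 1.5 h (*roX1* at 1.02). The stage difference of *mle* in the H3.3 mutant, at the fold threshold, fell below it under 5 alternatives and 3 left-out libraries, to −0.73 with library totals. That of *roX1* in the mislocalized dPCIF1 mutant fell below it with library totals (0.97) and without the second wild-type library of 0.5 to 1 h (0.996). That of *roX1* between the later stages of the H3.3 mutant was −0.94 with library totals, also below it. At 10 CPM or more, the X-linked minus autosomal median was 0.237 in the HIRA mutant at 2.5 to 3 h and −0.0566 in the mislocalized dPCIF1 mutant at 1 to 1.5 h. Depth limits *roX2* alone.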
